A study of Danio rerio with 9 samples.

Results

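The Notch pathway genes and the related her and hey genes were examined in zebrafish hindbrain tissue with and without Hoxb1a, the Hox transcription factor of rhombomere 4 (r4). Members were found by symbol in the platform's probe annotation: every gene with 1 symbol beginning with her or hes and a number, hey, notch, jag1, jag2, numb, mib, dll, rbpj, lfng or psen, and the genes dla, dlb, dlc and dld. This gave 27 genes of the 5355 named genes on the array, each read by its brightest probe. One of the 27, mibp, matched by its letters only: the gene table lists mib, Mind bomb, as a synonym of mib1, and mibp as a different gene. A probe annotated with both her7 and her1 was left out, since the rule takes probes with 1 symbol.

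All embryos came from an islet-1 GFP transgenic strain, 19 to 20 hours after fertilization, and tissue of 8 to 10 of them was pooled per sample as a thick slice across the hindbrain. The 3 tissues had 3 arrays each: r4 of untreated embryos (normal r4), r4 of embryos given a morpholino against Hoxb1a (Hoxb1a-deficient r4, below also deficient r4), and rhombomere 2 of untreated embryos (normal r2), which the study used as further tissue lacking Hoxb1a. The sources used here name no control injection for the normal embryos. There were 3 experiments. The first had no r2 sample, the second had every tissue once, and the third had both r4 tissues once and r2 as a pair of samples (3a and 3b), so the r2 arrays stand for 2 experiments.

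Notch receptors sit in the membrane of one cell and bind Delta or Jagged ligands on its neighbour. Binding lets proteases, among them the presenilins, release the inner part of the receptor, which joins the DNA-binding protein RBPJ and turns on her and hey genes. Their products are basic helix-loop-helix repressors that hold back proneural genes, so that in the embryonic hindbrain some cells become neurons while their neighbours stay progenitors. Some her genes, such as her5 at the border of midbrain and hindbrain and her9, are known in zebrafish to be set by position rather than by Notch.

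Array values are given on the deposited linear scale, as multiples of the array median, and 1 thus stands for the typical probe. Many probes below 1 may hold little signal over background, but the background treatment is unknown. By this measure 16 of the 27 genes were above the median on all 9 arrays and 4 (her7, her8a, notch1b and mibp) were below it on all 9. Levels of different probes cannot be set against each other. At the upper end, lfng read the highest value of its array on 4 arrays and over 80% of it on 8. The probe of her9 passed 80% on 7 arrays and that of dlb on 6. Differences at these 3 probes may be understated.

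The labels were set against marker genes. The r4 gene hoxb1a read 3.02, 2.42 and 1.88 in normal r4 (experiments 1 to 3), 3.17, 1.52 and 1.51 in deficient r4 and 0.774, 0.590 and 0.567 in r2. It fell in r2 (limma's adjusted p = 0.00137). A morpholino need not lower the transcript it targets, so this probe does not check the knockdown. The r3 and r5 gene egr2b read 112 to 152 in normal r4, 113 to 153 in deficient r4 and 24.7 to 52.3 in r2. For hoxb3a the ranges were 6.76 to 34.9, 2.69 to 22.6 and 0.620 to 0.752. Both fell in r2 against normal r4 (limma's adjusted p = 0.0143 and 0.00228). Of 16 rhombomere boundary and segment genes, 4 fell and 1 rose in r2 by that test (0.937% and 0.764% of all probes). The part of neighbouring segments in the slices was not tested. The neural progenitor genes sox3 and sox19a and the neuron gene elavl3 were above the median on every array, and the neuron gene elavl4 on 4 arrays. Of 23 neural progenitor and radial glia genes 15 were above it on every array and 5 below. Of 24 proneural and neuronal differentiation genes 12 were above on every array and 6 below. Of genes of other tissues, 10 of 14 presomitic and somitic ones were below the median on every array and 0 above it throughout. Of 11 vascular genes 7 were below on every array, kdrl and tal1 among them, and 2 above (dab2 and vegfab). Of 17 neural crest and pharyngeal genes 5 were below on every array, sox10 among them, and 6 above (dlx2a, fgfr1a, foxd3, mitfa, snai2 and tfap2a).

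**Figure D1:**
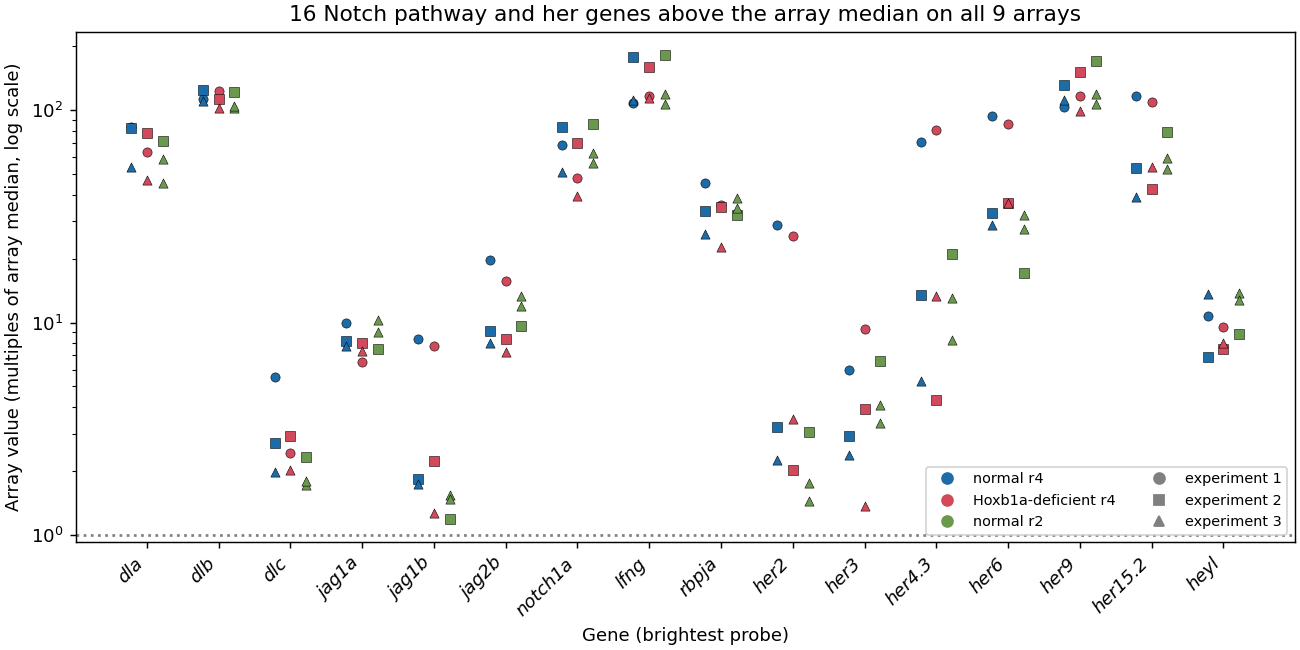
Array values in multiples of the array median (log axis) of the 16 genes above the median on all 9 arrays; colours are tissue groups, symbols are experiments, and each point is 1 array. The 3 groups overlap at most genes, whereas the 2 arrays of experiment 1 (circles) stand well above the others at her2, her4.3, her6, her15.2 and jag1b.

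The first comparison asked whether these genes need Hoxb1a in r4. None of the 27 passed limma's test with the experiment as a block, neither higher in deficient r4 (0% of all 16227 probes passed) nor lower (0.0123% passed). At an unadjusted p under 0.05 there was 1 gene of the 27, while 5.74% of all probes reached it. The median log2 difference was -0.0066 over the 27 genes and -0.0060 over all probes. For 25 of the 27 the 95% interval of the difference lay within 2-fold both ways, and it did not for her4.3 and notch2. Of the 16 genes above the median on every array, 15 were within it. In a slice of many cells, fewer cells of a type and less RNA per cell cannot be told apart. These intervals thus bound the probe signal of the slice. At dim probes, and at lfng, her9 and dlb near the ceiling, a narrow interval need not bound the RNA level.

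Among Delta ligands, dla read 83.1, 82.4 and 53.9 in normal r4 (experiments 1 to 3) and 63.5, 78.2 and 47.2 in deficient r4. In r2 samples 2, 3a and 3b it read 72.1, 59.3 and 45.6. The groups overlapped, and deficient r4 differed from normal r4 by -0.22 ± 0.14 on the log2 scale (SE, n = 3 per group, limma's adjusted p = 0.890). The Delta gene dlb stayed between 103 and 124 on all 9 arrays, with a difference of -0.043 ± 0.11. For dlc, which also acts in the segmentation clock of the somites, the 3 normal r4 arrays read 5.56, 2.72 and 1.98, the deficient ones 2.43, 2.92 and 2.02 and the r2 ones 2.32, 1.71 and 1.79. Only the normal r4 array of experiment 1 stood apart: within experiments 1 to 3 the log2 differences were -1.19, 0.099 and 0.032.

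The Jagged ligand gene jag1a read 9.98, 8.17 and 7.74 in normal r4, 6.53, 8.00 and 7.38 in deficient r4 and 7.47, 8.98 and 10.3 in r2. A second, jag2b, read 19.8, 9.11 and 8.00, then 15.7, 8.41 and 7.25, and in r2 9.59, 12 and 13.3. Both had negative differences in each experiment (jag1a -0.61, -0.029 and -0.069, jag2b -0.33, -0.12 and -0.14), without passing the test (adjusted p = 0.901 and 0.918). The third, jag1b, read 8.34, 1.82 and 1.74 in normal r4 and 7.76, 2.22 and 1.27 in deficient r4, so that both arrays of experiment 1 were high and both tissues were low in experiments 2 and 3.

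Of the receptors, notch1a had the lowest p in this comparison. It read 68.6, 83.2 and 51.2 in normal r4, 48.0, 69.9 and 39.6 in deficient r4 and 85.9, 63.0 and 56.5 in r2. The deficient array was the dimmer one of each pair, with log2 differences of -0.51, -0.25 and -0.37, although the groups overlapped. The difference of -0.38 ± 0.12 (a 1.30-fold lower level, 95% interval -0.65 to -0.10) had an unadjusted p of 0.0128 and an adjusted p of 0.771. A dimmer notch1a probe gave the opposite sign (0.46, adjusted p = 0.887) and another, near the array median, -0.18 (adjusted p = 0.890), so the 3 probes of this gene did not share a sign.

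The receptor gene notch2 lay close to the array median, with 0.899, 1.10 and 0.863 in normal r4 and 1.16, 1.27 and 1.28 in deficient r4. These ranges did not overlap, with deficient r4 higher. That held for 1 of the 27 genes, against 0.604% of all probes, and the reverse for 0, against 1.47%. The difference of 0.38 ± 0.38 did not pass (adjusted p = 0.956). In r2 it read 1.12, 2.86 and 0.820, where the samples 3a and 3b of a single experiment differed most. Its second probe was below 1 on all arrays. The receptor gene notch3 read 1.49, 0.937 and 0.873 in normal r4, 1.95, 1.01 and 0.738 in deficient r4 and 1.06, 0.881 and 0.802 in r2, with overlapping groups and a difference of 0.084 ± 0.14. Dim notch1b (0.440 to 0.817) gave 0.010 ± 0.11.

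Genes that modify or transmit the signal showed small differences. The Fringe gene lfng, whose enzyme adds sugars to Notch and shifts its choice of ligand, read 108, 179 and 112 in normal r4, 117, 160 and 114 in deficient r4 and 182, 107 and 119 in r2, at or near each array's ceiling. The RBPJ gene rbpja read 45.3, 33.5 and 26.3, then 36.0, 35.0 and 22.6, and 32.0, 38.8 and 34.8 in r2, a difference of -0.16 ± 0.17 between the r4 tissues. The presenilin gene psen2 was dim throughout (0.622 to 1.18).

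The her genes that Notch is known to drive in the neural tube varied widely between arrays of the same tissue. The probe of her4.3 read 71.0, 13.5 and 5.33 in normal r4, 80.7, 4.33 and 13.3 in deficient r4 and 20.9, 8.28 and 13.1 in r2. Deficient r4 differed from its normal partner by 0.18, -1.64 and 1.32 on the log2 scale in turn, so that experiments 2 and 3 had opposite signs, and the estimate was -0.045 ± 0.48.

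The probe of her15.2 read 117, 53.3 and 39.2 in normal r4, 109, 42.8 and 54.1 in deficient r4 and 79.0, 59.4 and 52.8 in r2. Its differences within experiments were -0.10, -0.32 and 0.46. For her2 the values were 28.7, 3.22 and 2.25 in normal r4, 25.7, 2.01 and 3.50 in deficient r4 and 3.04, 1.76 and 1.45 in r2. Its difference was -0.68 in experiment 2 and 0.64 in experiment 3. By sign alone, 7 of the 27 genes were lower in experiment 2 and higher in experiment 3 (18.7% of all probes). Another 7 went the opposite way (32.3%), jag1b and heyl among them. Among probes above the median on every array these shares were 12.4% and 42.8%.

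In the gene table of a later assembly, which was used for names and order only, her4.1 and her4.3 are neighbours within a family of 5 her4 copies, and her2 lies next to the pair her15.1 and her15.2. Near-identical copies can share a probe's signal, so the her4.3 and her15.2 values belong to a probe and perhaps to several copies. A second her4 probe, her4.1, was near the array median (0.571 to 2.05).

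The remaining her and hey genes gave no call in this comparison either. The zebrafish gene her6 read 93.7, 32.9 and 28.9 in normal r4, 86.5, 36.8 and 36.6 in deficient r4 and 17.1, 32.1 and 27.6 in r2. The gene her3, known in zebrafish to be repressed by Notch signalling, read 5.97, 2.91 and 2.37, then 9.37, 3.92 and 1.36, and 6.58, 4.09 and 3.38 in r2. Within experiments its differences between the r4 tissues were 0.65, 0.43 and -0.80. The gene heyl read 10.8, 6.87 and 13.7 in normal r4, 9.56, 7.49 and 8.03 in deficient r4 and 8.86, 13.8 and 12.7 in r2 (-0.27 ± 0.16 between the r4 tissues). The gene hey1 read 1.60, 1.06 and 0.815 in normal r4, 1.36, 1.37 and 0.863 in deficient r4 and 0.914, 0.593 and 0.661 in r2, a difference of 0.074 ± 0.14 between the r4 tissues. Bright her9 (98.8 to 171) gave 0.070 ± 0.13. The 4 genes near or below the median, hey2 (0.782 to 1.11), her5, her7 (0.358 to 0.764) and her8a (0.705 to 0.914), gave 0.065 to 0.15.

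**Figure D2:**
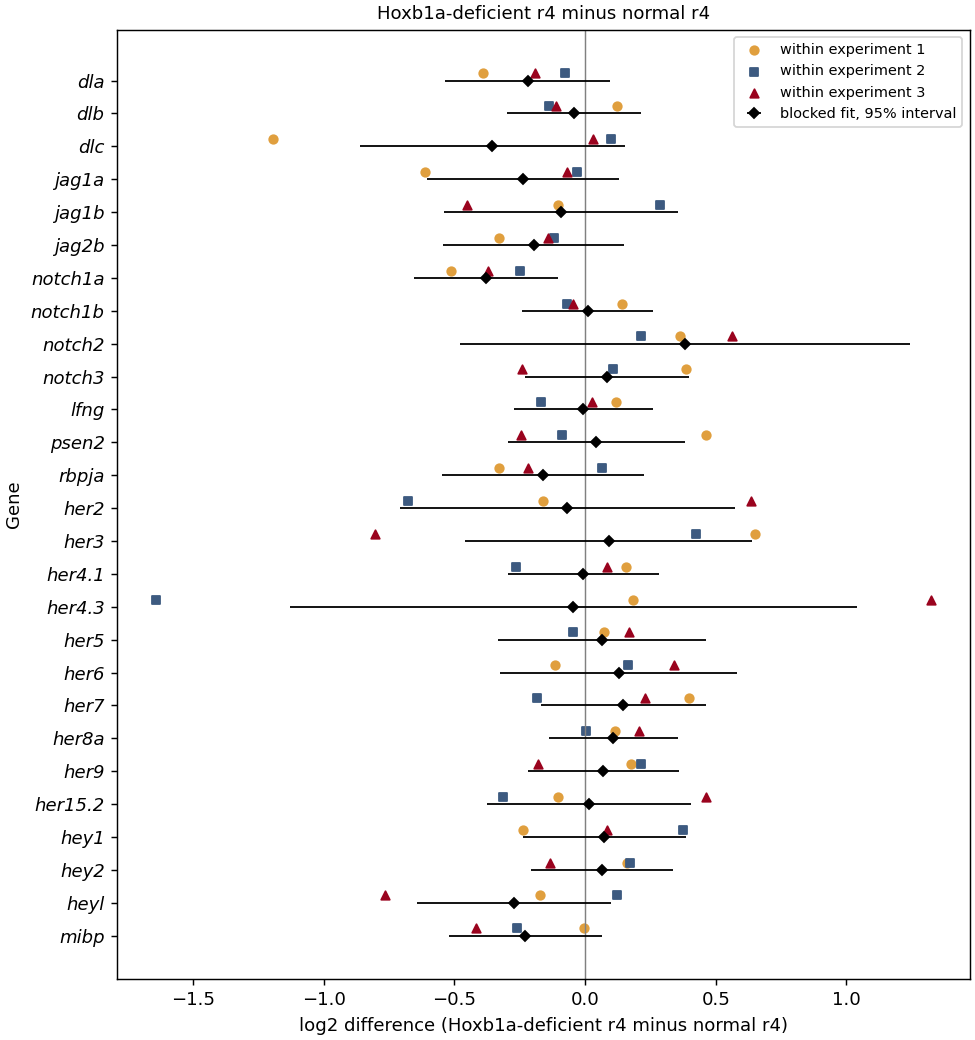
Log2 difference (deficient r4 minus normal r4) of the 27 genes: coloured points are differences within each of the 3 experiments, black diamonds the blocked estimate with its 95% interval. All intervals except that of notch1a cross 0, and the points of her4.3 lie furthest apart (-1.64 and 1.32).

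By sign alone, 5 of the 27 (dla, jag1a, jag2b, notch1a and mibp) were lower in deficient r4 in every experiment and 2 (her8a and notch2) were higher. Among all probes 12.5% were lower each time and 10.6% higher, and among the 6725 probes above the median on every array 17.8% and 8.28%. The members' share of 18.5% lower is close to that of bright probes in general. A difference of over 1.5-fold in every experiment was found for 0 of the 27 in either direction (0.0493% of all probes higher, 0.123% lower).

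The second comparison set normal r2 against normal r4. Here 0 of the 27 passed limma's blocked test as higher in r2 and 0 as lower, against 0.764% and 0.937% of all probes, and 5 of the 27 had an unadjusted p under 0.05 (11% of all probes). The median log2 difference was 0.12 over the 27 genes and 0.035 over all probes. The interval lay within 2-fold for 22, and for 13 of the 16 genes above the median on every array. The genes nearest to a call were her3 and her5, both with more signal in r2.

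For her3 the r2 arrays exceeded the normal r4 array of their experiment by 1.17 (experiment 2) and 0.65 (experiment 3) on the log2 scale. The estimate was 1.06 ± 0.26 (SE, a 2.08-fold higher level, 95% interval 0.47 to 1.65), with limma's adjusted p at 0.0998. It passed with a trended, robust variance (adjusted p = 0.0445). It also passed without normal r4 replicate 3 (1.52, adjusted p = 0.0415) or without Hoxb1a-deficient r4 replicate 3 (0.92, adjusted p = 0.0343). With normal r4 replicate 3 out, only experiment 2 holds both r2 and normal r4, and the 1.52 exceeds the differences seen within either experiment. With no block it was 0.38 (adjusted p = 0.959).

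The gene her5 keeps a zone of undifferentiated progenitors at the border of midbrain and hindbrain in zebrafish. Its probe read 0.486, 0.728 and 0.518 in normal r4, 0.512, 0.705 and 0.583 in deficient r4 and 0.876, 0.945 and 1.23 in r2. The r2 range lay above both others, with sample 3b alone over its array's median. Between r2 and normal r4 the ranges were apart for 1 member (her5) with r2 higher and for 1 (jag1b) with r2 lower, against 3.71% and 5.05% of all probes. The her5 difference was 0.73 ± 0.19 (adjusted p = 0.117), with 0.27 in experiment 2 and 1.05 in experiment 3. It passed with a trended, robust variance (adjusted p = 0.0255). It also passed without normal r2 replicate 2 (1.00, adjusted p = 0.0264), but r2 then rests on samples 3a and 3b of experiment 3 alone, counted as separate arrays.

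Some genes of the tissue in front of r2 also had more signal in r2. Of 17 midbrain, isthmus and rhombomere 1 genes, 4 passed the blocked test as higher in r2 (otx2b, fgf8a, cnpy1 and en2a) and 0 as lower. Of all probes 0.764% passed as higher and 0.937% as lower. By sign alone 12 of the 17 were higher and 5 lower, with a list median of 0.18 beside 0.035 for all probes. The transcription factor gene otx2b read 1.08 ± 0.362 in normal r4 (SD, n = 3) and 5.09, 11.7 and 21.2 in r2 samples 2, 3a and 3b. The summed level of the 17 genes, in which bright gbx1 outweighs the rest, was 170 to 235 in normal r4, 155 to 259 in deficient r4 and 171 to 188 in r2. Of the 17, 0 were listed at 0 and 5 were below the median on every array. The part of neighbouring tissue in the her5 and her3 values was not tested.

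Genes of the ear, which forms beside r4, moved the other way. Of 16 otic vesicle and placode genes 7 fell in r2 and 0 rose by limma's test (0.937% and 0.764% of all probes). The list median was -0.64. Those that fell were otop1 (-3.85), dlx4b (-3.67), epcam (-3.07), dlx3b (-2.81), six4b (-2.49), gata3 (-2.48) and eya1 (-1.82). Their summed level was 64.5 to 190 in normal r4, 68.3 to 147 in deficient r4 and 19.4 to 21.9 in r2, with 5 below the median on every array and 0 listed at 0. Between deficient r4 and r2, 7 of the 16 were higher in deficient r4 and 0 lower (0.875% and 1.34% of all probes). Its part in the values of jag1b, hey1 and her6, which had lower estimates in r2, was not tested.

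The other members had higher adjusted p-values than her3 and her5 in limma's blocked test of r2 against normal r4. For her15.2, r2 exceeded normal r4 by 0.57 and 0.51 in experiments 2 and 3 (0.47 ± 0.19, adjusted p = 0.374), and for her4.3 by 0.63 and 0.96 (0.74 ± 0.52, adjusted p = 0.766). For jag2b the estimate was 0.39 ± 0.16, with 0.074 in experiment 2 and 0.66 in experiment 3. The estimate for hey1 was -0.37 ± 0.15 at levels near the median (adjusted p = 0.371), and for her6 -0.42 ± 0.22, with -0.94 in experiment 2 and 0.040 in experiment 3. For jag1b (1.19, 1.54 and 1.48 in r2) the r2 range lay below that of normal r4, with an estimate of -0.34 ± 0.21. Higher in r2 by over 1.5-fold in both experiments were 2 of the 27, her3 and her4.3 (1.4% of all probes), and lower by as much 0 (1.15%). By sign alone 11 were higher in both (30.7% of all probes) and 8 lower (25.1%).

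The block mattered for genes with high values in experiment 1, which held no r2 sample. Without it the difference between r2 and r4 was -1.58 in place of -0.42 for her2, -1.10 in place of -0.34 for jag1b and -0.85 in place of -0.42 for her6. At her4.3 the sign turned, from 0.74 to -0.39. None of these passed with or without the block.

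**Figure D3:**
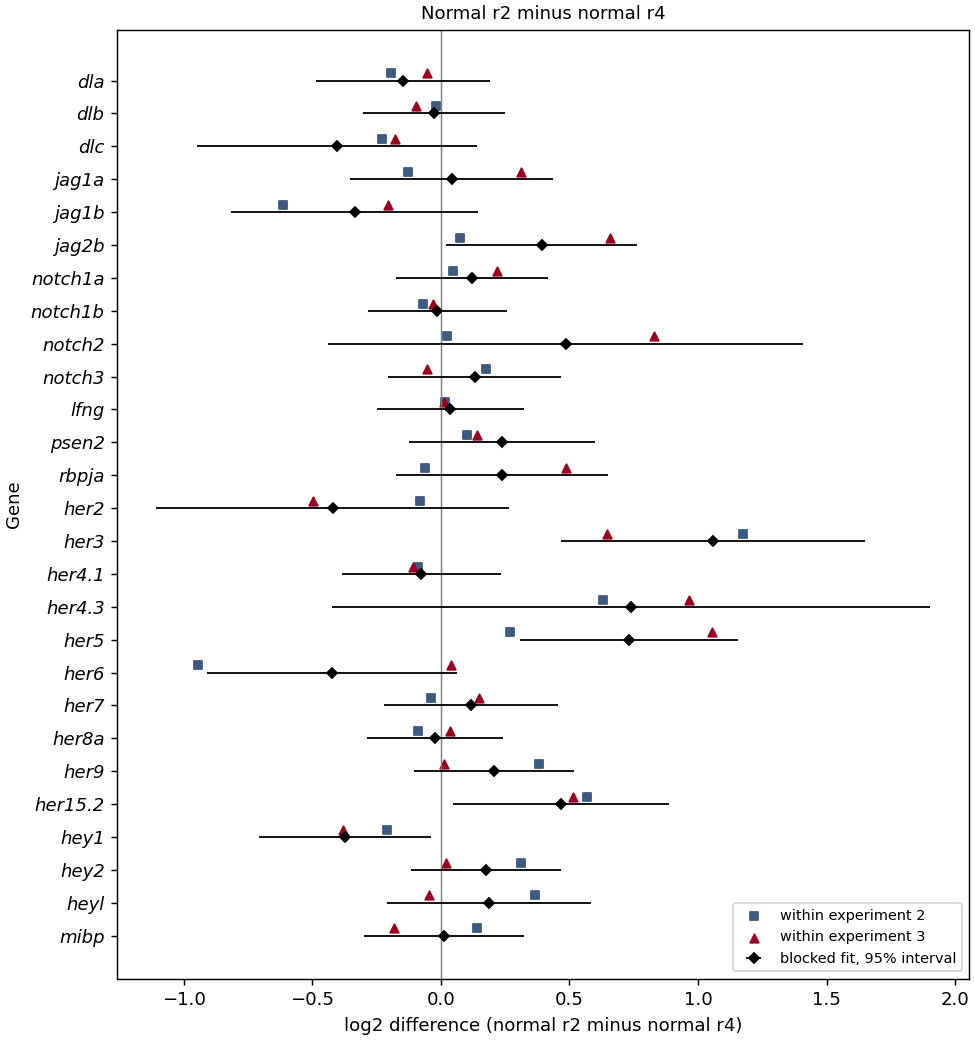
Log2 difference between normal r2 and normal r4 for the 27 genes: coloured points are the differences within experiments 2 and 3, black diamonds the blocked estimate with its 95% interval. The intervals of her3, her5, her15.2 and jag2b lie above 0 and that of hey1 below it, without a call after adjustment over all probes.

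Deficient r4 and r2, which were also compared, share their arrays with the comparisons above. Of the 27, 0 passed as higher in deficient r4 (0.875% of all probes) and 0 as lower (1.34%), and 8 had an unadjusted p under 0.05 (15.2% of all probes). The lowest of limma's adjusted p-values was that of notch1a, 0.102, at -0.50 ± 0.13 (deficient r4 minus r2, log2), followed by her3 at -0.97 ± 0.26 (adjusted p = 0.112). Here too the probes of notch1a did not share a sign. The dimmer one gave 0.11 (adjusted p = 0.900) and the one near the array median -0.29 (adjusted p = 0.265). The estimates were -0.59 ± 0.16 for jag2b (adjusted p = 0.122), -0.67 ± 0.19 for her5 (adjusted p = 0.125) and -0.46 ± 0.18 for heyl. Leaving out 1 array, r2 replicate 2, made jag2b (-0.83, adjusted p = 0.0293) and her5 (-0.94, adjusted p = 0.0279) pass. With that array out, r2 rests on samples 3a and 3b of experiment 3 alone. Leaving out normal r4 replicate 3 made her3 pass (-1.10, adjusted p = 0.0352).

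With more signal in deficient r4 than in r2 were her6 (0.55 ± 0.22, adjusted p = 0.266) and hey1 (0.45 ± 0.15, adjusted p = 0.189). All 3 deficient arrays of her6 (36.6 to 86.5) lay above those of r2 (17.1 to 32.1), and after quantile normalization it passed (0.77, adjusted p = 0.0388). Ranges were apart for 2 genes with deficient r4 higher (her6 and her8a, against 4.09% of all probes) and for 2 with it lower (her5 and mibp, against 6.43%). In both experiments 4 of the 27 were higher (17.8% of all probes) and 12 lower (36%). By over 1.5-fold in both, 0 were higher (1.35%) and 1, her3, lower (1.24%).

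The 2 arrays of experiment 1 stood apart from the rest at several of these genes, and this was tested after the values had been seen. Experiment 1 was compared with the mean of experiments 2 and 3 in the same model, with the tissue as a term. For comparisons of experiments, the SE and p-values rest on the spread left between arrays once tissue and experiment are fitted. They do not measure how far experiments vary, and experiment 1 is a single one. As deposited, 13 of 27 members were higher and 3 lower in experiment 1. The background is high, since 30.4% of all probes were higher and 38.7% lower, and 61.1% of those above the median on every array were higher. The arrays also differed in spread, with upper quartiles of 6.87 and 6.15 in experiment 1 against 3.64 to 4.75 elsewhere. After quantile normalization, which gives every array the same distribution, 8 of 27 members (29.6%) were higher and 4 lower, against 11.2% and 9.61% of all probes and 18.8% of the bright ones on the higher side.

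The difference was largest among the members at her2 and her4.3. It was 3.34 ± 0.30 on the log2 scale for her2 (SE, a 10.2-fold higher level, adjusted p = 7.17e-05) and 3.24 ± 0.51 for her4.3 (9.42-fold, adjusted p = 0.000951), and of all 16227 probes 1 had a larger difference than her2 and 2 than her4.3. After quantile normalization the values were 2.62 ± 0.38 and 2.70 ± 0.63, with 4 and 3 probes above them. Bright probes as a whole had a median of 0.62 as deposited and 0.014 after quantile normalization.

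Also higher with both scalings were jag1b (2.22 ± 0.21 as deposited, 1.5 ± 0.20 after quantile normalization), her6 (1.42 ± 0.21 and 0.96 ± 0.15), her4.1 (1.37 ± 0.14 and 1.13 ± 0.14) and her15.2 (1.27 ± 0.18 and 0.96 ± 0.24). So were notch3 (0.95 and 0.71) and psen2 (0.49 and 0.61), both at low levels. Thus 8 of 27 members were higher with both scalings, against 10.6% of all probes. No such share was taken for the probes above the median on every array, of which 18.8% were higher after quantile normalization alone. The gene her3 was higher as deposited (1.60 ± 0.26, limma's adjusted p = 0.00106) and did not pass after quantile normalization (0.86, adjusted p = 0.0524). Likewise jag2b (1.11) and hey1 (0.56) passed as deposited but not after it (0.34, adjusted p = 0.121, and 0.33, adjusted p = 0.120).

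Some other members gave no such difference as deposited. The ligand dla, the receptor notch1a and the repressor her9 gave 0.19 ± 0.15, -0.031 ± 0.13 and -0.15 ± 0.14 as deposited, and after quantile normalization notch1a (-0.57), jag1a (-0.77), heyl (-0.59) and lfng (-0.42) were lower in experiment 1. The values of dlc and rbpja, higher as deposited (0.63 and 0.48), lay at -0.039 and -0.17 after it. Between experiments 3 and 2, dla (-0.59 ± 0.13 and, after quantile normalization, -0.71 ± 0.11), notch1a (-0.67 ± 0.12 and -0.77 ± 0.086) and hey1 (-0.53 ± 0.13 and -0.59 ± 0.11) were lower in experiment 3 with both scalings. As deposited, 0 of the 27 were higher in experiment 3 (4.81% of all probes) and 5 lower (2.95%), the other two being lfng and her9, whose arrays reached or neared their ceiling there. After quantile normalization 0 were higher (4.52%) and 5 lower (5.39%), among them her3 (-1.07) and rbpja (-0.38) in place of lfng and her9. What set the experiments apart was not tested.

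**Figure D4:**
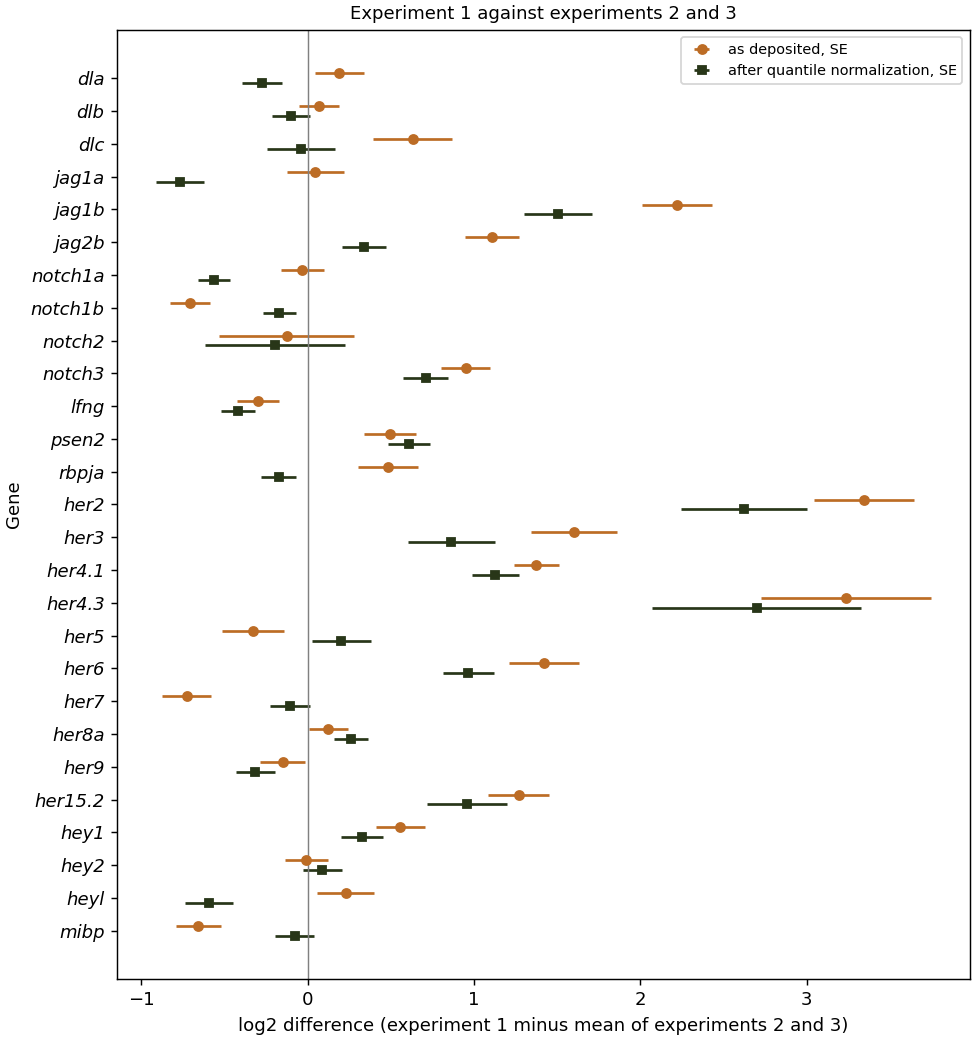
Log2 difference between experiment 1 and the mean of experiments 2 and 3 for the 27 genes, as deposited (circles) and after quantile normalization (squares), with SE. The points of her2 and her4.3 lie furthest to the right with both scalings (2.62 to 3.34), and dlc and rbpja, which passed as deposited, are among 8 genes whose sign turns.

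Further genes of the pathway were followed from a list of receptor proteases, glycosyltransferases, co-factors and feedback genes. Of these, 19 were on the array, 14 of them above the median on every array, and 0 passed the test in any of the 3 tissue comparisons. Their median difference was 0.0040 for deficient against normal r4, 0.11 for r2 against normal r4 and -0.037 for deficient r4 against r2, beside -0.0060, 0.035 and -0.043 for all probes. The receptor protease gene adam10a read 7.51, 3.80 and 4.00 in normal r4, 4.22, 3.08 and 2.38 in deficient r4 and 3.22, 4.75 and 3.75 in r2, a difference between the r4 tissues of -0.63 ± 0.17 (adjusted p = 0.730). The protease gene adam17a had -0.64 ± 0.16 for deficient r4 against r2 (limma's adjusted p = 0.0967). The Fringe gene rfng, known in zebrafish from rhombomere boundaries, read 20.7, 7.16 and 11.7 in normal r4 and 7.34, 18.4 and 24.4 in r2, a difference of 0.51 ± 0.22 (adjusted p = 0.433).

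Proneural genes, which Her proteins are known to repress, and genes of neuronal differentiation formed a list with 24 members on the array. Between the r4 tissues 0 passed, with a median of -0.18. In r2 against normal r4, neurod1 (-2.63) and the neurofilament gene nefma (-1.08) fell and stmn2a (1.02) rose, with a median of -0.075. Of all probes 0.937% fell and 0.764% rose. In deficient r4 against r2, neurod1 was higher (2.43) and stmn2a lower (-1.33), beside 0.875% and 1.34% of all probes. Of 23 neural progenitor and radial glia genes 0 passed between the r4 tissues (median -0.084), and 4 had an unadjusted p under 0.05 (5.74% of all probes). By sign alone 8 of the 23 were higher in deficient r4 and 15 lower, with differences from -0.98 to 0.86. The radial glia genes fabp7a (-0.98 ± 0.16, limma's adjusted p = 0.211), slc1a2b (-0.88 ± 0.14, adjusted p = 0.151) and gfap (-0.79 ± 0.15, adjusted p = 0.324) had negative differences in all 3 experiments. So did the brightest notch1a probe, but a dimmer one did not (0.32, 1.25 and -0.19 in experiments 1 to 3). Among all probes 12.5% were lower each time, and 17.8% of those above the median on every array. The part of these glia genes in the notch1a values was not tested. In r2 against normal r4, 1 of the 23 fell, fabp7a (-0.87, list median -0.018), and 0 rose, beside 0.937% and 0.764% of all probes. In deficient r4 against r2, 2 were lower, gfap (-0.79) and zic5 (-0.93), and 0 higher, beside 1.34% and 0.875%.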

How the data were processed

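The table holds 16399 probes on 9 one-colour arrays. Its linear values, as the authors deposited them, were read as a ratio of intensity to a constant per array, because each array's median is 1.00 to 1.01. No source used here names the scanner, background treatment or normalization. RNA was amplified and labelled with biotin, per the labels' protocols. Names come from the platform annotation, checked by Entrez ID for 6010 rows in a gene table of a later assembly. Sequences were not used here. After 172 spots of 1 repeated accession were left out as controls, 16227 probes were tested.

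Log2 values without a pseudocount were fitted with limma 3.58.1 in R 4.3.3 (tissue group and experiment as terms, all 9 arrays, eBayes, two-sided, Benjamini-Hochberg adjustment over all probes, threshold 0.05), in a script tested on simulated data. The experiment was a block because the design text gives each replicate number its own experiment. As a check, normal and deficient r4 arrays of 1 number had deviations from their group mean that correlated at 0.892, 0.730 and 0.683, and arrays of unlike numbers at -0.781 to 0.504. Such deviations sum to 0 within a group, so positive values for like numbers push those for unlike numbers down. Precision is limited by having 3 arrays a group, and the p-values rest on how far these pooled samples spread.

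Members and gene lists were chosen with earlier results of these data known, and the comparison of experiments after the values were seen. All values are given for members with ranges apart or among the 4 largest differences each way in a comparison, in both cases with a group mean above the array median. Of other lists, some of the genes past the test or with the largest differences were named. The genes dla, lfng, rbpja and her15.2, and the radial glia and otic genes, were added after their values were seen. Alternatives were no block, a random block, log2(value + 1), a floor at the array median, quantile normalization, a dim-probe filter, a trended robust variance, averaged r2 samples, experiment 1 or single arrays left out, and the mean of a gene's probes.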

Additional observations from a re-analysis of the deposited data

How the results depend on the processing

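In Hoxb1a-deficient against normal r4, 0 members passed in all 19 alternatives, with no replicate block included, where the count was 0 in every tissue comparison. For r2 against normal r4 it was 2 with a trended, robust variance (her3 and her5), and between Hoxb1a-deficient r4 and r2 it was 1 with that variance (her5) and 1 with quantile normalization (her6). Leaving out each array in turn gave 0 to 0, 0 to 1 and 0 to 2 in the 3 comparisons in that order. The calls were her3 or her5 in r2 against normal r4, and her3, her5 or jag2b in the last comparison. Those of her5 and jag2b came without r2 replicate 2, which leaves r2 with the pair of samples of experiment 3. A her3 call in r2 against normal r4 came without normal r4 replicate 3, which leaves only experiment 2 with both tissues. Over all probes, the counts behind these ran from 0 to 13 (2 as reported), 8 to 443 (276) and 16 to 871 (359), with 0, 94 and 90 without the block. The lowest counts against r2 came from raising values below the array median to it. Of the members' differences, 10, 15 and 12 of 27 kept their sign in every alternative. The number of members higher in experiment 1, 13, was 8 with quantile normalization, 11 with log2(value + 1) and 10 to 13 with single arrays left out. In that comparison 8 members' signs turned with quantile normalization, among them 2 that passed as deposited, dlc (-0.039) and rbpja (-0.17), and with values raised to the median for her7, mibp and notch1b (0.010 each). Low signal limits the 11 genes that were not above the median on all arrays, and the ceiling limits lfng, her9 and dlb. The cause of these changes was not tested.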

Other observations

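The additional probes of 2 members did not enter the member counts, except in the alternative that took the mean of a gene's probes. A dimmer notch1a probe read 3.56, 1.64 and 1.71 in normal r4, 4.45, 3.90 and 1.49 in deficient r4, and 2.60, 2.01 and 1.61 in r2. Another notch1a probe stayed between 0.783 and 1.33, and the other notch2 probe between 0.501 and 0.815. Beside her2 and her4.3, the named genes among the 15 probes with the largest difference of experiment 1 from experiments 2 and 3 that passed limma's test were rab41 (3.17), tmsb (3.13), fabp7a, a radial glia gene (2.84), id1, a helix-loop-helix inhibitor (2.74), smc5 (2.74), usp39 (2.71) and tagln3b (2.70), all on the log2 scale as deposited. The gene ctslb (2.85) did not pass (adjusted p = 0.0716).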
